A study of Mus musculus with 8 samples.

Results

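Long-chain fatty acids reach the heart muscle cell by a route whose steps are carried by different cells, and 10 genes of this route are described here. They are Lpl and Gpihbp1, which act on the vessel wall, the membrane transporter Cd36, the carrier proteins Fabp3, Fabp4 and Fabp5, the transport and activation genes Slc27a1 and Acsl1, and the transcription factor genes Meox2 and Tcf15. They were chosen by name for their role and are 10 of the 32285 genes counted. RNA of single nuclei from adult mouse hearts was counted in 10x Genomics droplets, as unique molecules (UMIs) per gene and nucleus. The labels sort the hearts by sex and by genotype, either non-transgenic (nTg, labelled wild type) or carrying a transgene of Ccna2 (Tg), the gene of the cell cycle regulator cyclin A2. The promoter of the transgene, the strain and the age in weeks are not given in the sources used here, and the labels do not say whether each library is 1 animal. The matrices of 5 libraries matched their own barcode lists, and by label these are nTg female 1, both Tg females (1 and 2) and both Tg males (1 and 2). The other 3 of the 8 samples were not analysed here.

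In the blood, fatty acids travel in triglyceride-rich lipoproteins and bound to albumin. Lipoprotein lipase, made largely by the myocytes, is carried by GPIHBP1 across the capillary endothelial cell to its luminal face, where it frees fatty acids from triglyceride. CD36 takes fatty acids across the membrane of endothelial and muscle cells, the fatty acid binding proteins hold them in the cytosol, and the heteromer of MEOX2 and TCF15 is known as a driver of CD36 and FABP4 expression in heart endothelium.

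Depth ran from 25045167 to 38593706 UMIs a library, and 5773 to 8817 nuclei a library passed the filters. Ccna2 went against 2 of the labels: in cardiomyocyte nuclei it stood at 444 counts per 1000000 UMIs (CPM) in the library labelled nTg female 1 and at 0.524 in the library labelled Tg female 1, against 143 to 819 in the 3 remaining libraries, which are labelled Tg. Xist and Uty matched the sex labels. The library labelled Tg female 2 stood apart: 4.39% of genes in its endothelial nuclei lay 2-fold or more outside the other libraries, against at most 1.75% in any other library, and 8 fibroblast markers summed there to 955 CPM against 208 to 336. Any pair of libraries shared 14 to 28 barcodes.

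The 10 genes were left out of the clustering that sorted the nuclei, and cell types were named from other marker genes. Each of 8 types held 50 nuclei or more in every library. These were fibroblasts (12592 nuclei), endothelial cells of blood vessels (6942), cardiomyocytes (6594), macrophages (2528), pericytes (2179), endocardial cells (1327), lymphatic endothelium (763) and smooth muscle (517). Named types with fewer nuclei, such as adipocytes (12) and Schwann cells (185), are left out below unless named. Another 315 endothelial nuclei that also carried markers of other types were set aside, 169 of them in the library labelled Tg female 2. A level below is the UMIs of a gene summed over the nuclei of a class in a library, per 1000000 UMIs of that sum. Per-library values always stand in the order nTg female 1, then Tg female 1 and 2, then Tg male 1 and 2, and means are ± SD with n = 5 libraries. Levels are compared within a gene, not between genes, because long genes with many intronic reads give more nuclear UMIs. Classes are called apart where the ranges of their 5 libraries do not overlap, with no test, since classes come from clusters of the same nuclei.

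The stretches of DNA just before the start of 3 of the genes are shown as examples of a transporter of both cell types, a regulator of the endothelium and a gene of the myocyte. The sequences come from RefSeq (GRCm38.p6), where 5 of the 10 genes were matched. Windows of 250 bases before the start were searched on both strands for the E-box CANNTG, the nuclear receptor hexamer AGGTCA and the homeodomain core TAATTA, and matches are in capitals. Of 32851 windows of this length in the genome's promoter table, 66.2% held the E-box, 14.0% the hexamer and 4.84% the homeodomain core. The windows, 5′ to 3′ on the strand of the gene, are chr5:17835897-17836146 on the minus strand for Cd36, chr12:37108290-37108539 on the plus strand for Meox2 and chr8:71568621-71568870 on the plus strand for Slc27a1.
Cd36: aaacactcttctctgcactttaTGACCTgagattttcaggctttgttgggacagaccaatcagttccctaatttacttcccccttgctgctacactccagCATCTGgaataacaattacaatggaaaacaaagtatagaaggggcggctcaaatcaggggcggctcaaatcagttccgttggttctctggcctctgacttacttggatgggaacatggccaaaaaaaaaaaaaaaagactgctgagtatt
Meox2: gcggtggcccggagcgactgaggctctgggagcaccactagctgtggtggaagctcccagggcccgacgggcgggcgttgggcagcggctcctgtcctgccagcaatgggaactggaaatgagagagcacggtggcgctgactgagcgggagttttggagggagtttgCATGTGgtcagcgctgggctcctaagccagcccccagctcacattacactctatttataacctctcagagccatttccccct
Slc27a1: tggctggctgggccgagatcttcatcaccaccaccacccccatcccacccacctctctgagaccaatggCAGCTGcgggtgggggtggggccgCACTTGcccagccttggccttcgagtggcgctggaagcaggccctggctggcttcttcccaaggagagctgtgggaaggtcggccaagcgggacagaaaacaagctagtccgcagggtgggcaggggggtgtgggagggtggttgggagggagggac
The Cd36 window precedes an inner start and lies within the annotated span of the gene. It held 1 E-box, 150 bases before the start, and 1 hexamer, 228 bases before it. The Meox2 window held 1 E-box at 82 bases, and the Slc27a1 window 2, at 181 and 157 bases. None of the 3 windows held TAATTA. These matches are letters in a window and were not tested as binding sites.

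The route split between vessel and myocyte nuclei. Gpihbp1, Fabp4, Fabp5, Meox2 and Tcf15 were apart with endothelial nuclei higher, by 22.7-fold to 215-fold in mean CPM. Fabp3, Slc27a1 and Acsl1 were apart with cardiomyocyte nuclei higher, by 1.93-fold to 73.8-fold. Cd36 and Lpl were high in both and overlapped. Over 11186 genes, endothelial nuclei were higher and apart for 50.8% and cardiomyocyte nuclei for 24.4%, so the counts of 5 and 3 of 10 are near the background.

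**Figure D1:**
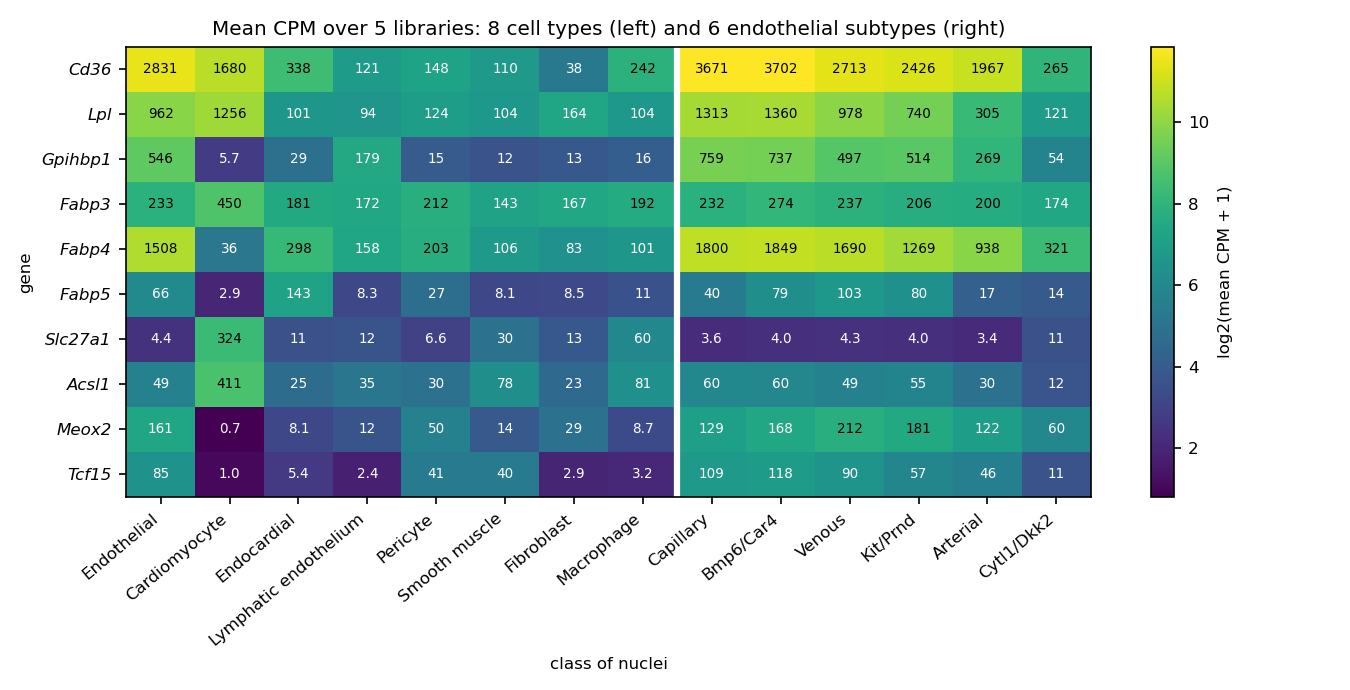
Heat map of log2(mean CPM + 1) over the 5 libraries, with the 10 genes in rows, the 8 cell types in the columns on the left and the 6 endothelial subtypes on the right. Gpihbp1, Fabp4, Meox2 and Tcf15 are brightest over endothelial columns, Slc27a1 and Acsl1 over cardiomyocytes, and Cd36 and Lpl over both.

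Lpl, the lipase (chr8:68880491-68907448, GRCm38 as are the spans below), had levels of 1486, 1326, 857, 1518 and 1092 CPM in cardiomyocyte nuclei and of 1232, 574, 677, 1178 and 1147 CPM in endothelial nuclei. The means were 1256 ± 279.7 and 962 ± 310.4 CPM, the ranges overlapped, and endothelial nuclei were higher in 1 of 5 libraries, the one labelled Tg male 2. Both classes were apart from the other 6 types, where the mean ran from 93.9 CPM in lymphatic endothelium to 164 CPM in fibroblasts. The level of Lpl RNA in endothelial nuclei does not say where the lipase protein is made, since only nuclear RNA was counted.

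Gpihbp1, the anchor of the lipase on capillary endothelium (chr15:75596628-75599481), had 642, 473, 412, 623 and 578 CPM in endothelial nuclei and 5.41, 3.29, 13.8, 3.198 and 2.97 CPM in cardiomyocyte nuclei. The means were 546 ± 99.3 and 5.74 ± 4.63 CPM, a 95-fold difference, or 156-fold without the library labelled Tg female 2. Lymphatic endothelium came next with 179 ± 41.9 CPM, 3.04-fold below blood vessel endothelium and apart from it. Endocardial nuclei, which also line blood, had 28.6 ± 13.5 CPM and were apart from lymphatic nuclei on the lower side. In cardiomyocytes, fibroblasts, macrophages, pericytes and smooth muscle the library labelled Tg female 2 was the highest, for example 8.26, 5.51, 38.6, 7.54 and 7.43 CPM in fibroblasts.

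Cd36, the transporter (chr5:17781690-17888801), had 3333, 2288, 1764, 3402 and 3367 CPM in endothelial nuclei and 1467, 1806, 1273, 1786 and 2068 CPM in cardiomyocyte nuclei. Endothelial nuclei were higher in 5 of 5 libraries, by 0.73 ± 0.34 on the log2 scale, yet the ranges overlapped across libraries. The endothelial levels of the 2 libraries labelled Tg female were the lowest of the 5. The other 6 types were apart from both and held means of 37.6 CPM in fibroblasts to 338 CPM in endocardial nuclei. Endocardial nuclei thus lay 4.97-fold below cardiomyocytes, the next type above them.

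The 3 carriers took separate patterns. Fabp4, the carrier of endothelium and fat cells (chr3:10204088-10208576), had 1459, 1365, 1243, 1786 and 1686 CPM in endothelial nuclei and 39.9, 34.3, 42.2, 29.6 and 33.5 CPM in cardiomyocyte nuclei, a 42.0-fold difference of the means. Endocardial nuclei followed with 298 ± 59.4 CPM and pericytes with 203 ± 37.9 CPM. Fabp5, a related carrier (chr3:10012548-10016607), was highest in endocardial nuclei at 154, 167, 69.95, 169.995 and 154 CPM, with 71.4, 63.6, 61.7, 77.7 and 57.5 CPM in endothelial nuclei. The 2 classes overlapped through the library labelled Tg female 2 alone, and the other 4 endocardial values lay above every endothelial value. Cardiomyocyte nuclei held 2.92 ± 0.865 CPM of Fabp5.

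Fabp3, the carrier of heart muscle (chr4:130308595-130315463), had 314, 388, 498, 584 and 467 CPM in cardiomyocyte nuclei and 249, 218, 309, 226 and 165 CPM in endothelial nuclei. The classes were apart, with a 1.93-fold difference of the mean CPM. Endothelium did not stand out from the rest: the other 6 types had means of 143 to 212 CPM, and the ranges of each overlapped with the endothelial range. As a measure of myocyte RNA in endothelial nuclei, 8 cardiomyocyte markers summed there to 4.25% of their cardiomyocyte level on average over libraries, while Fabp3 stood at 54.3%, Acsl1 at 12.1% and Slc27a1 at 1.37%. The part of free myocyte RNA in the Fabp3 level of other types was not tested. Fabp3 and Fabp5 have annotated pseudogenes with near-identical sequence (Fabp3-ps1 and Fabp5l2), so reads could be shared and their counts are uncertain.

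Slc27a1, the gene of fatty acid transport protein FATP1 (chr8:71568882-71587302), had 393, 254, 227, 390.3 and 358 CPM in cardiomyocyte nuclei and 5.54, 5.64, 2.04, 5.69 and 3.06 CPM in endothelial nuclei, 73.8-fold apart in the mean. Endothelium was the lowest of the 8 types, and macrophages followed cardiomyocytes with 60.5 ± 26.99 CPM. Acsl1, which joins fatty acids to coenzyme A (chr8:46471037-46536051), had 356, 411, 412, 403 and 475 CPM in cardiomyocyte nuclei and 50.9, 50.4, 57.1, 41.8 and 45.6 CPM in endothelial nuclei, an 8.36-fold difference. Macrophages (81.3 ± 10.7 CPM) and smooth muscle (78.5 ± 9.73 CPM) lay between the 2, overlapped each other and were apart from endothelium. Outside the 8 types, the 12 adipocyte nuclei had means of 982 ± 380 CPM of Slc27a1 and 2548 ± 1698 CPM of Acsl1, both above cardiomyocytes. Schwann nuclei had 131 ± 40.5 CPM of Slc27a1, above macrophages.

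Meox2 and Tcf15, which act as a heteromer, were low in cardiomyocyte nuclei. Meox2 (chr12:37108540-37179534) had 166, 192, 123, 178 and 145 CPM in endothelial nuclei, and its mean in cardiomyocyte nuclei was 0.748 ± 0.374 CPM, 215-fold lower. Tcf15, its partner (chr2:152143561-152149097), had 70.8, 111, 109, 65.7 and 70.1 CPM in endothelial nuclei against a mean of 1.03 ± 0.521 CPM in cardiomyocytes, 82.6-fold lower. Endothelial markers stood in cardiomyocyte nuclei at 0.352% of their endothelial level, Meox2 at 0.493% and Tcf15 at 1.19%. Outside endothelium both genes were next highest in pericytes. Meox2 had 49.98 ± 10.3 CPM in pericytes, 29.5 ± 12.2 CPM in fibroblasts and 14.04 ± 5.38 CPM in smooth muscle, and Tcf15 had 41.5 ± 4.64 CPM in pericytes and 40.005 ± 13.4 CPM in smooth muscle. Tcf15 fell off more sharply beyond these, with 5.44 ± 2.18 CPM in endocardial nuclei, 7.36-fold below smooth muscle and apart from it.

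**Figure D2:**
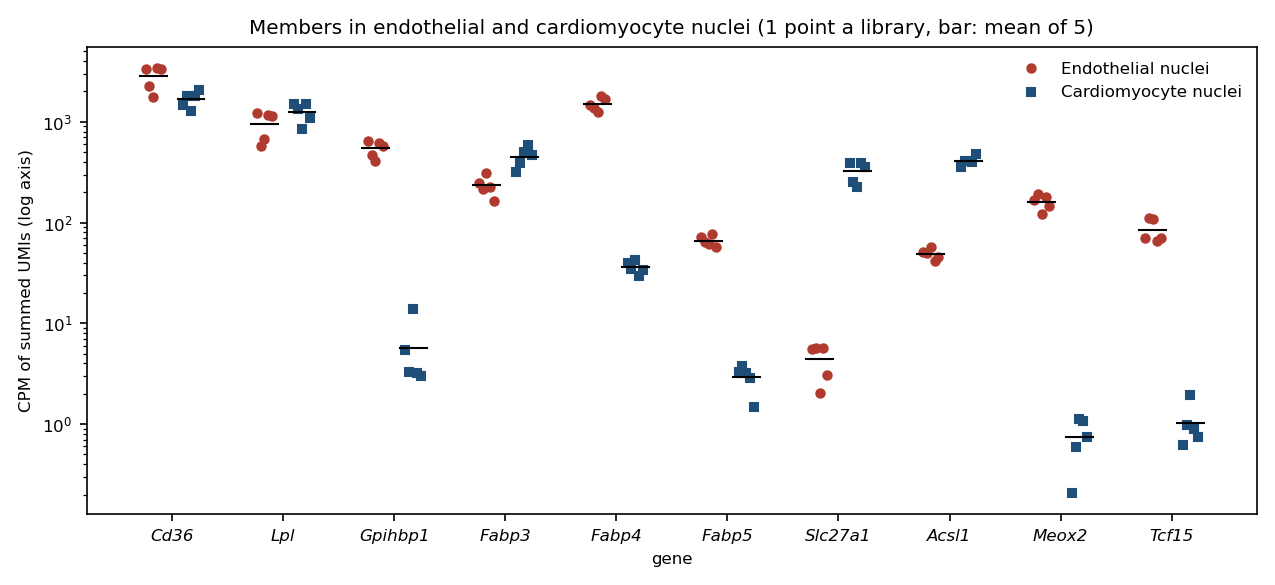
Levels of the 10 genes in endothelial and cardiomyocyte nuclei in CPM on a log axis, 1 point a library and a bar at the mean of 5. The points of the 2 classes overlap for Cd36 and Lpl only.

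A CPM value divides by the RNA of the nucleus, and cardiomyocyte nuclei held 3.35 to 4.22 times as many UMIs per nucleus as endothelial nuclei in the 5 libraries. Counted as UMIs per nucleus, a scale added after the data were seen, Cd36 turned round, with 6.10 in endothelial and 13.4 in cardiomyocyte nuclei (2.19-fold higher in cardiomyocytes, in 5 of 5 libraries). Lpl had 2.08 and 9.99, 4.81-fold higher in cardiomyocytes. The direction of the other 8 members was that in CPM, but their folds moved. The cardiomyocyte side gained, with Fabp3 7.29-fold, Acsl1 31.5-fold and Slc27a1 276-fold higher in cardiomyocytes per nucleus. The endothelial side lost, with Gpihbp1 27.6-fold, Fabp4 11.5-fold, Fabp5 6.29-fold, Meox2 59.03-fold and Tcf15 22.8-fold higher in endothelium per nucleus. These 5 genes also lost when called doublets were kept, where the mean log2 ratio of CPM, endothelial to cardiomyocyte, went from 6.83 to 5.001 for Gpihbp1, from 5.39 to 4.27 for Fabp4, from 4.56 to 3.61 for Fabp5, from 7.95 to 5.17 for Meox2 and from 6.45 to 4.54 for Tcf15. Of the Cd36 UMIs in the kept nuclei of a library, on average over the 5 libraries, 62.2% lay in cardiomyocytes and 30.3% in endothelium, and of the Lpl UMIs 72.1% and 16.2%. For Gpihbp1 the shares were 2.61% and 77.9%, for Fabp4 5.37% and 65.0%, for Meox2 0.94% and 58.3% and for Tcf15 2.61% and 65.4%. Slc27a1 and Acsl1 lay in cardiomyocytes with 92.7% and 87.5% of their UMIs.

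Detection in single nuclei depended on depth for Cd36. Nuclei were thinned to 1000 UMIs each, which left out 337 of 6942 endothelial and 85 of 6594 cardiomyocyte nuclei. The median depth before thinning was 1554 to 2197 UMIs in endothelial and 5714.5 to 8008 UMIs in cardiomyocyte nuclei. Cd36 was then found in 81.5% of endothelial and 75.7% of cardiomyocyte nuclei (mean share over libraries), against 3.74% of fibroblasts. Without thinning the order turned, with 88.1% and 97.1%, and 8.91% of fibroblasts. Thinning to a fixed total, like CPM, sets a gene against the other RNA of its nucleus. Lpl was found in 49.9% and 65.9%, and in 14.7% of fibroblasts. Without thinning these were 65.7%, 96.7% and 32.2%. Gpihbp1 was found in 37.9% of endothelial nuclei against 0.801% of cardiomyocytes and 1.45% of fibroblasts, and Fabp4 in 69.7% against 4.08% and 8.51%. Unthinned, Gpihbp1 stood at 55.2%, 3.86% and 3.08% and Fabp4 at 83.7%, 20.9% and 19.3%. The transcription factors were sparse, with Meox2 in 12.7% and Tcf15 in 8.37% of endothelial nuclei against 0.101% and 0.156% of cardiomyocytes, and 22.9%, 15.1%, 0.557% and 0.746% unthinned.

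Within the endothelium the genes did not follow a single line. The nuclei fell into 6 subtypes: capillary (1145 nuclei), venous (1791) and arterial (897) endothelium named from markers, and 3 clusters called by their leading genes, Bmp6 and Car4 (2048), Kit and Prnd (616), and Cytl1 and Dkk2 (445). The Bmp6 and Car4 cluster had only 2 capillary markers raised. Car4 and Timp4 had higher means there than in capillary endothelium (285 and 401 CPM against 181 and 248 CPM). The capillary markers Rgcc, Btnl9, Cd300lg, Kdr and Sgk1 had lower means there. The gap ran from 597 against 651 CPM for Rgcc to 163 against 851 CPM for Btnl9. The Cytl1 and Dkk2 cluster had 6 arterial markers raised and carried Gja5 and Sema3g. Of the venous markers, Vwf, Vcam1 and Selp had higher means there than in venous endothelium. The venous markers Nr2f2, Lhx6, Ephb4 and Ackr1 had lower means there, for example 5.36 CPM of Nr2f2 against 212 CPM in venous endothelium. In 5 of 5 libraries Cd36, Lpl and Gpihbp1 were lowest in the Cytl1 and Dkk2 cluster, next lowest in arterial endothelium, and highest in capillary endothelium or the Bmp6 and Car4 cluster.

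**Figure D3:**
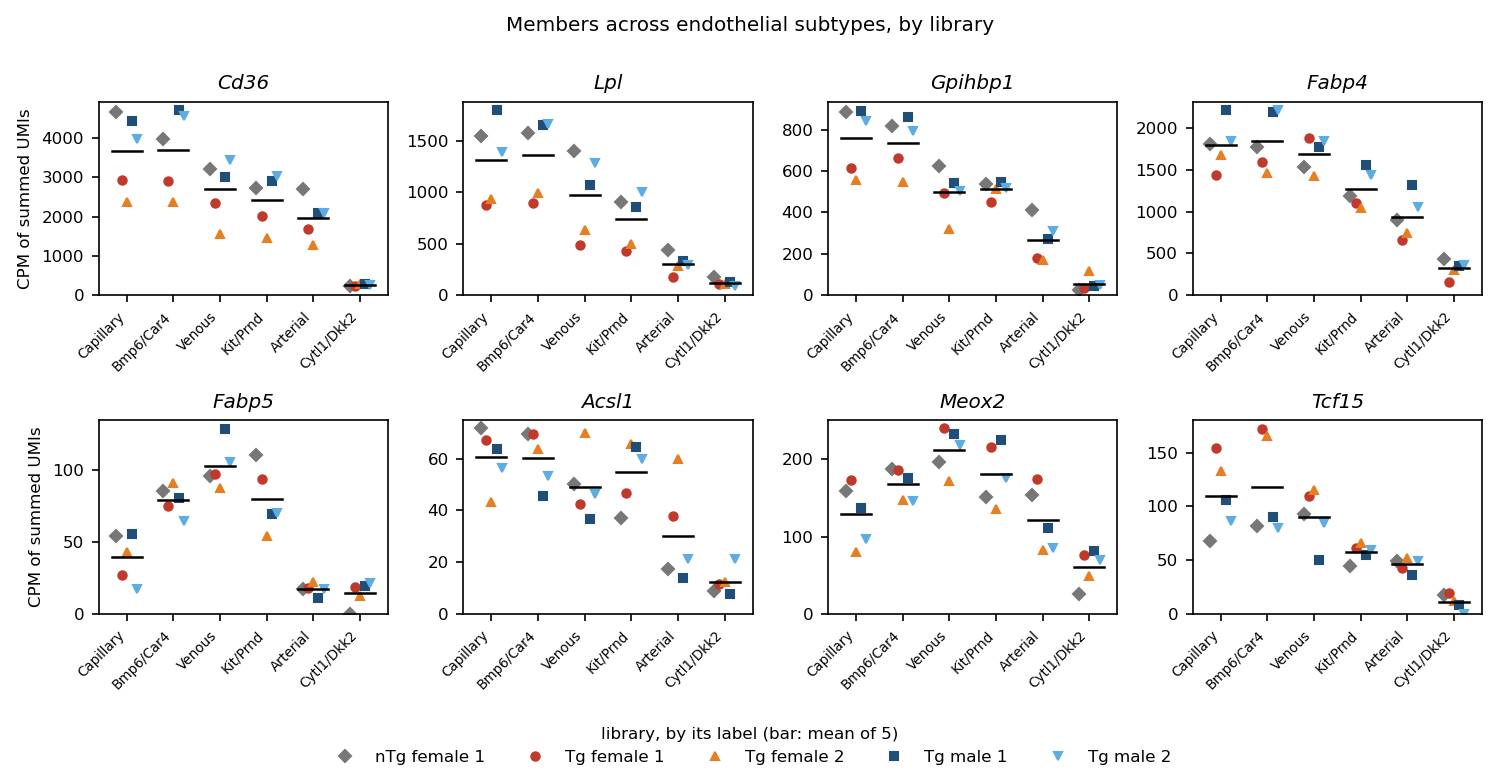
Levels in CPM (axes from 0) of the 10 genes except Fabp3 and Slc27a1 across the 6 endothelial subtypes, 1 point a library and a bar at the mean of 5. Cd36, Lpl and Gpihbp1 are lowest in the Cytl1 and Dkk2 cluster in every library, while Meox2 and Fabp5 have their highest mean in venous endothelium.

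Lpl had 1554, 878, 938, 1799 and 1396 CPM in capillary endothelium, 436, 179.7, 280.1, 332 and 294 CPM in arterial endothelium and 173, 106, 105, 129 and 90.7 CPM in the Cytl1 and Dkk2 cluster. Capillary and arterial ranges did not overlap, and the means differed 4.31-fold. Gpihbp1 had 885, 614, 557, 892 and 844 CPM in capillary and 410.1, 182, 168, 274 and 309 CPM in arterial endothelium, which were apart with a 2.82-fold difference of the means. Its mean was 497 ± 112 CPM in venous endothelium and 53.7 ± 36.6 CPM in the Cytl1 and Dkk2 cluster, where the library labelled Tg female 2 was highest at 117 CPM.

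Cd36 had 4658, 2934, 2362, 4438 and 3966 CPM in capillary, 2696, 1683, 1277, 2089 and 2089.5 CPM in arterial endothelium and 247, 246, 291, 281 and 262 CPM in the Cytl1 and Dkk2 cluster. Capillary was above arterial endothelium in 5 of 5 libraries, 1.87-fold in the mean, but the ranges overlapped. The low Cd36 of the Cytl1 and Dkk2 cluster was steady across libraries and 14.0-fold below the Bmp6 and Car4 cluster. At 1000 UMIs a nucleus, Cd36 was found in 92.1% of capillary, 85.3% of venous and 71.1% of arterial nuclei and in 12.4% of the Cytl1 and Dkk2 cluster. Lpl was found in 63.7%, 51.6%, 20.4% and 8.66%, and Gpihbp1 in 50.5%, 36.2%, 21.3% and 3.26%.

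The carriers differed from each other along the vessel. Fabp4 had 1815, 1442, 1684, 2213 and 1848 CPM in capillary and 902, 663, 747, 1318 and 1059.7 CPM in arterial endothelium, apart and 1.92-fold different in the mean. Fabp5 had 95.7, 97.1, 87.5, 128 and 105 CPM in venous endothelium, 54.2, 26.9, 43.3, 55.8 and 17.3 CPM in capillary and 17.4, 17.7, 22.4, 11.2 and 17.1 CPM in arterial endothelium. Venous nuclei were thus above both in all 5 libraries, and the Bmp6 and Car4 cluster, at 79.3 ± 10.1 CPM, was apart from capillary endothelium. Fabp3 varied least among the members whose highest and lowest subtype were apart, with a 1.58-fold difference between 274 ± 70.5 CPM in the Bmp6 and Car4 cluster and 174 ± 20.3 CPM in the Cytl1 and Dkk2 cluster. Slc27a1 was low throughout, with ranges that overlapped between its highest and lowest subtype. Acsl1 had near-equal means in capillary endothelium, 60.5 ± 11.1 CPM, and in the Bmp6 and Car4 cluster, 60.4 ± 10.5 CPM. Either class was the highest in only 2 of 5 libraries. The capillary mean was 4.91-fold above that of the Cytl1 and Dkk2 cluster.

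Meox2 and Tcf15 parted along the vessel. Meox2 was highest in venous endothelium in 5 of 5 libraries, at 197, 239.9, 172, 232 and 219 CPM, with 159, 173, 80.5, 137 and 97.4 CPM in capillary endothelium. The ranges overlapped where the highest capillary value, in the library labelled Tg female 1, passed the lowest venous value, in that labelled Tg female 2. Tcf15 had 81.9, 171, 166, 90.4 and 79.6 CPM in the Bmp6 and Car4 cluster, with 67.8, 154, 133, 106 and 86.5 CPM in capillary and 49.4, 43.03, 52.3, 36.3 and 49.04 CPM in arterial endothelium. Its mean was highest in the Bmp6 and Car4 cluster, but in both libraries labelled Tg male the capillary value was higher, and 1 library had its highest value in venous endothelium. Capillary and arterial nuclei were apart for Tcf15, 2.38-fold in the mean, and overlapped for Meox2.

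The members were also counted over pairs of subtypes, beside the share of all genes that were apart in the same direction. Capillary was above arterial endothelium for 4 of 10 members (Lpl, Gpihbp1, Fabp4 and Tcf15) and for 4.59% of genes, and no member was apart the other way (4.27% of genes). The Bmp6 and Car4 cluster was above arterial endothelium for 5 (Lpl, Gpihbp1, Fabp4, Fabp5 and Tcf15; 7.65% of genes) and venous above arterial endothelium for 3 (Lpl, Fabp4 and Fabp5; 8.23% of genes). Venous endothelium and the Bmp6 and Car4 cluster were each above capillary endothelium for Fabp5 alone (6.86% and 2.53% of genes). The Cytl1 and Dkk2 cluster was below the Bmp6 and Car4 cluster for 9 members, all but Slc27a1 (11.3% of genes), below venous endothelium for 8 (9.94%) and below the Kit and Prnd cluster for 8 (10.7%). It was below capillary and below arterial endothelium for 6 members each (9.18% and 4.48% of genes). Members share libraries and nuclei, so these counts are not independent of each other, and their difference from the share of all genes was not tested.

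Sex was compared in the libraries labelled Tg, 2 female and 2 male, on summed counts with edgeR's quasi-likelihood test and Benjamini-Hochberg adjustment over all genes tested. The library labelled Tg female 1 had 0.524 CPM of Ccna2 in cardiomyocyte nuclei, against 143 to 819 CPM in the others labelled Tg. Sex and the level of Ccna2 can thus not be fully told apart in this comparison or in the tests built on it below. In endothelial nuclei 0 of 10 members passed at an adjusted p of 0.05, where 23 of 12830 genes (0.179%) did. At an unadjusted p under 0.05 stood 5 members, 4 lower and 1 higher in female libraries, against 1159 genes (9.03%). DESeq2 called 103 genes and 2 members, Lpl and Cd36. With 1 library left out, edgeR called 93 to 214 genes, the most without the library labelled Tg female 1. The median log2 difference, female minus male, was -0.17 over the members and 0.01 over all genes.

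Lpl in endothelial nuclei had 574 and 677 CPM in the female and 1178 and 1147 CPM in the male libraries labelled Tg. The groups did not overlap, and the library labelled nTg female 1, at 1232 CPM, lay with the male ones and above all 4. The log2 difference was -0.96 (SE 0.19, adjusted p = 0.136 by edgeR). Without the library labelled Tg female 1, whose Ccna2 goes against its label, it was -0.87 with an adjusted p of 0.0248 by edgeR, and without Tg female 2 it was -1.07 with 0.0110. In these fits the lone female library is assumed to vary like the others.

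Cd36 in endothelial nuclei had 2288 and 1764 CPM in female and 3402 and 3367 CPM in male libraries, with 3333 CPM in the library labelled nTg female 1. The log2 difference was -0.80 (SE 0.23, adjusted p = 0.289 by edgeR), and without the library labelled Tg female 1 it was -1.03 with an adjusted p of 0.00989. Gpihbp1 differed by -0.50 (adjusted p = 0.424) and Fabp4 by -0.48 (adjusted p = 0.52), also by edgeR. For these 4 members both female libraries lay below both male ones, which holds for 16.1% of all genes. Tcf15 went the other way, with 111 and 109 CPM in female and 65.7 and 70.1 CPM in male libraries (log2 difference 0.63, SE 0.17, adjusted p = 0.246 by edgeR). Acsl1 also had both female libraries above both male ones, as had 25.3% of all genes. In the female library labelled nTg, Tcf15 stood at 70.8 CPM.

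**Figure D4:**
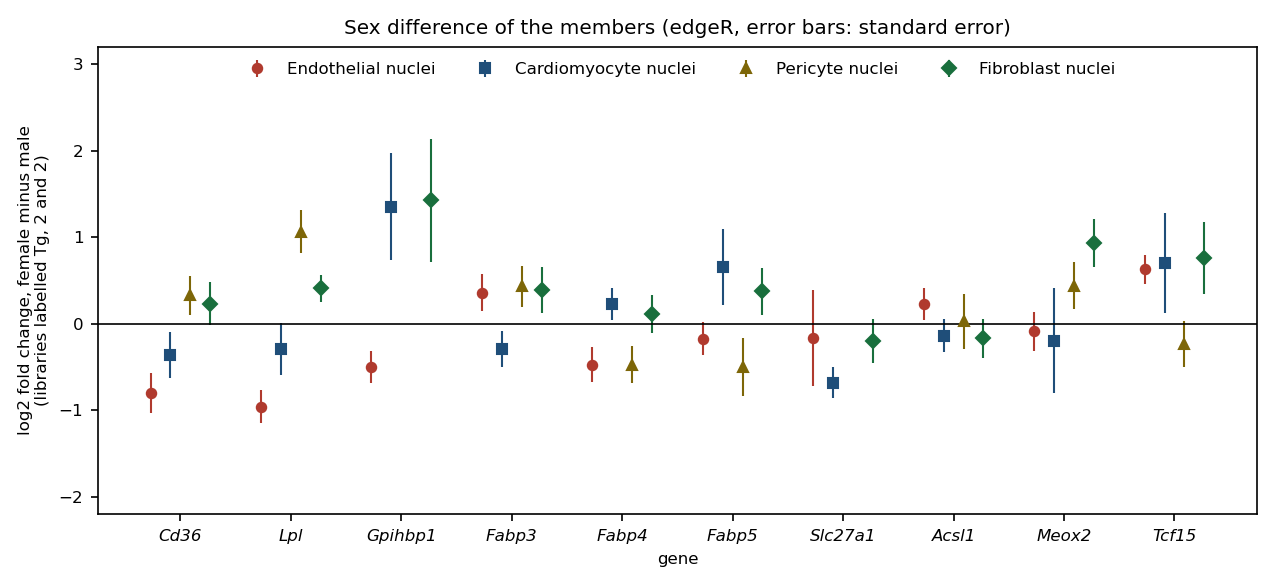
Log2 fold change, female minus male, of the 10 genes in 4 classes of nuclei, from edgeR on 2 female and 2 male libraries labelled Tg, with standard errors as bars. Endothelial Lpl (-0.96) and Cd36 (-0.80) lie below 0 and endothelial Tcf15 (0.63) above it.

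Across the 6 endothelial subtypes, both female libraries lay below both male ones in 5 subtypes for each of Cd36, Lpl, Gpihbp1 and Fabp4, and above them in 5 for Tcf15. The subtypes are parts of the same libraries, so these orders are not independent of each other or of that in the whole endothelium. The share of genes with the same order in 5 subtypes is not given here. Of all genes, the share with both female libraries below was 16.4% in capillary and in arterial, 16.1% in venous endothelium, 15.8% in the Bmp6 and Car4, 16.6% in the Kit and Prnd and 17.1% in the Cytl1 and Dkk2 cluster. The share with both above was 21% in capillary and 22.5% in venous endothelium, and 23.7%, 21.3% and 19.6% in those 3 clusters. Of the differences of the members 3 passed the test, the only calls of a member in the 12 classes other than the endothelium as a whole and cardiomyocytes. Leaving out 1 library moved the number of such calls both up and down. In each of those fits more genes were called over these classes as a whole. Lpl in venous endothelium had 1407, 486, 635, 1070.3 and 1289 CPM and fell by 1.13 on the log2 scale in female libraries (SE 0.22, adjusted p = 0.0296 by edgeR), where 45 of 9402 genes (0.479%) were called. Lpl in the Bmp6 and Car4 cluster had 1582, 896, 999, 1652 and 1671 CPM and fell by 0.87 (SE 0.21, adjusted p = 0.0427 by edgeR), where 98 of 9134 genes (1.07%) were called. Tcf15 in the same cluster had 81.9, 171, 166, 90.4 and 79.6 CPM and rose by 0.93 (SE 0.22, adjusted p = 0.0383 by edgeR). In all 3 cases the library labelled nTg female 1, which the test did not use, lay closer to the male than to the female libraries labelled Tg, and with all 5 libraries in a fit without a genotype term none of the 3 passed (adjusted p = 0.896, 0.737 and 0.693 by edgeR). The call for Lpl in venous endothelium was lost without Tg male 2 (adjusted p = 0.390). The calls in the Bmp6 and Car4 cluster were lost without Tg male 1 (0.424 for Lpl and 0.284 for Tcf15) or without Tg male 2 (0.789 and 0.821), all by edgeR. Tcf15 there did not pass by DESeq2 (adjusted p = 0.162) or by edgeR without a filter on low counts (0.0597).

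Cardiomyocyte nuclei gave 0 of 10 members by edgeR and by DESeq2, with 4 of 15158 genes (0.0264%) called by edgeR and 101 by DESeq2. Slc27a1 alone had an unadjusted p under 0.05. It had 254 and 227 CPM in female and 390 and 358 CPM in male libraries (log2 difference -0.68, SE 0.18, adjusted p = 0.498 by edgeR), and 393 CPM in the library labelled nTg female 1. Both female libraries lay below both male ones, as for 17.6% of genes. Lpl in cardiomyocytes differed by -0.29 (SE 0.30) and Cd36 by -0.36 (SE 0.27), with ranges that overlapped. Slc27a1 in macrophages had both female libraries below both male ones (19% of genes), 63.9, 38.6, 27.4, 87.01 and 85.5 CPM, with a log2 difference of -1.39 (SE 0.24) and an adjusted p of 0.0693 by edgeR. It passed without the library labelled Tg female 1 (adjusted p = 0.0181) and without Tg male 1 (0.0136).

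Lpl went the other way outside blood vessel endothelium and cardiomyocytes: in each of the other 6 types both female libraries labelled Tg lay above both male ones, and none of the 6 passed the test by edgeR. The share of all genes with that order was 17.9% in pericytes, 28.4% in fibroblasts, 20.8% in macrophages, 23% in endocardial nuclei, 20.3% in lymphatic endothelium and 17.3% in smooth muscle. In pericytes it had 139, 142, 183, 62.5 and 93.8 CPM (log2 difference 1.06, SE 0.25, adjusted p = 0.248 by edgeR). In fibroblasts it had 216, 178, 174, 125 and 125 CPM and in macrophages 129, 92.6, 156, 64.1 and 76.96 CPM (adjusted p = 0.404 and 0.387 by edgeR). The pericyte difference passed without the library labelled Tg female 1 (adjusted p = 2.36e-05 by edgeR) and without Tg female 2 (0.0038), and that in macrophages without Tg female 1 (0.0434). With called doublets kept, the log2 difference was 0.17 in pericytes and 0.42 in fibroblasts, and it turned to -0.19 in macrophages. These levels are low beside cardiomyocyte Lpl, and cardiomyocyte markers in the same pericyte sums came to 1926, 1603, 1987, 1377 and 1434 CPM and endothelial markers to 110.2, 115, 142, 124 and 102 CPM. In fibroblast sums cardiomyocyte markers came to 1646, 1149.8, 1512, 1041 and 1137 CPM and in macrophage sums to 1864, 1259.99, 1496, 1178 and 1377 CPM. The part of RNA from other cells in these differences was not tested.

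**Figure D5:**
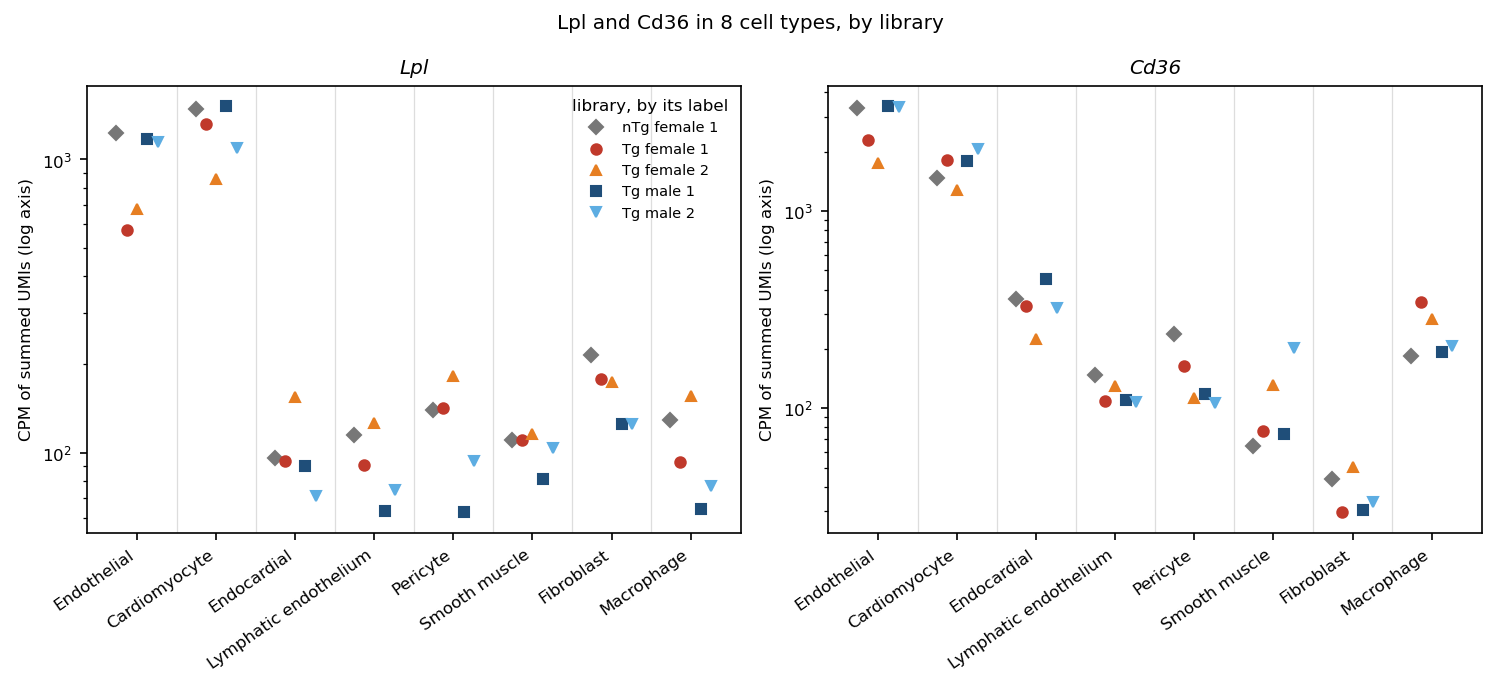
Lpl and Cd36 in the 8 cell types in CPM on a log axis, 1 point a library. In endothelial nuclei both female libraries labelled Tg lie below the male ones for both genes, while in pericytes, fibroblasts and macrophages they lie above them for Lpl.

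Whether the sex difference itself differed between endothelium and another type was tested as an interaction in edgeR, planned for cardiomyocytes and added for the other 6 types after the data were seen. Against cardiomyocytes no member passed (1 of 15474 genes, 0.00646%), with -0.68 for Lpl (SE 0.29, adjusted p = 0.628) and -0.46 for Cd36 (SE 0.19, adjusted p = 0.616). For Lpl the difference, endothelial minus other, was -2.01 against pericytes (SE 0.21, adjusted p = 3.52e-05, 0.226% of genes called) and -1.37 against fibroblasts (SE 0.14, adjusted p = 0.00142, 1.16% called) by edgeR. Both passed in 7 of 7 alternatives, with -1.11 against pericytes when called doublets were kept. It was -1.72 against macrophages (adjusted p = 0.0184, 0.099% called), -1.53 against lymphatic endothelium (0.00808, 0.202%) and -1.45 against endocardial nuclei (0.0247, 0.0969%), each passing in 5 of 7 alternatives. Against smooth muscle it was -1.25 and did not pass (adjusted p = 0.0957, 0.494% called). Cd36 differed by -1.08 against pericytes (adjusted p = 0.0129) and by -1.44 against macrophages (0.0184), and Meox2 by -1.01 against fibroblasts (0.00906). All 7 tests use the same endothelial sums, so they are not independent of each other. With called doublets kept, Cd36 no longer passed against macrophages (-0.39, adjusted p = 0.892) or pericytes (-0.13, 0.964), nor Lpl against macrophages (-0.78, 0.302) or lymphatic endothelium (-0.93, 0.150), by edgeR.

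Single libraries also decided some of these calls. By edgeR, Lpl against endocardial nuclei did not pass without Tg male 1 (adjusted p = 0.0811) or Tg male 2 (0.271), against lymphatic endothelium without Tg male 1 (0.0719), and against macrophages without Tg male 2 (0.0712). Cd36 did not pass against pericytes without Tg female 1 (adjusted p = 0.142 by edgeR), nor against macrophages without Tg male 1 (0.0503) or Tg male 2 (0.137). Meox2 against fibroblasts did not pass without Tg male 1 (adjusted p = 0.0804 by edgeR) or Tg male 2 (0.111). Meox2 in fibroblasts had 32.3, 48.5, 28.5, 21.2 and 17.001 CPM, higher in both female libraries labelled Tg, while its endothelial groups overlapped. Cd36 in macrophages had 184, 345, 283, 193 and 207 CPM, with both female libraries labelled Tg above both male ones, and in pericytes 238, 164, 113, 118 and 106 CPM, where the groups overlapped. Endothelial markers in macrophage sums came to 76.9, 108, 216, 99.2 and 70.7 CPM.

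The single library labelled nTg was set beside the 4 labelled Tg without a test. None of the members with 10 CPM or more lay outside the range of those 4 and 2-fold or more from their mean, out of 9 in endothelial nuclei (1.05% of genes did) and 6 in cardiomyocyte nuclei (0.97% of genes). Fabp3 in cardiomyocytes, at 314 CPM, was below all 4 libraries labelled Tg (log2 ratio to their mean -0.62), and Slc27a1, at 393 CPM, was above all 4. Because Ccna2 was high in this library and close to 0 in the one labelled Tg female 1, these values compare libraries by label only.

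A list of 40 other genes of the pathway was read in the same way. Endothelial nuclei were higher and apart for 19, cardiomyocyte nuclei for 11, and 10 overlapped, or 47.5% and 27.5% of the list against 50.8% and 24.4% of all genes, so the list was near the background. The lipase handling and lipoprotein receptor genes split 4, 2 and 2 of 8. Vldlr, a lipoprotein receptor, had 440 ± 35.6 CPM in cardiomyocyte and 7.20 ± 1.19 CPM in endothelial nuclei, and Scarb1, a receptor for high-density lipoprotein, had 15.8 ± 2.86 and 122 ± 11.8 CPM. The endothelial transport genes split 8, 2 and 1 of 11, with Flt1, a receptor of VEGF-B, at 3273 ± 560.3 CPM in endothelial and 6.41 ± 1.65 CPM in cardiomyocyte nuclei. Flt1 was also among the markers that named the endothelial clusters, so its higher level there was set by the naming. The activation genes split 3, 1 and 3 of 7, with Acsl5 at 56.9 ± 8.15 CPM in endothelial and 1.19 ± 0.407 CPM in cardiomyocyte nuclei, the reverse of Acsl1.

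Nuclear receptors and coactivators split 2, 2 and 1 of 5. Pparg, the receptor that guides fat storage, had 506 ± 66.4 CPM in endothelial and 57.2 ± 11.8 CPM in cardiomyocyte nuclei, while Ppargc1a, a coactivator of oxidative genes, had 5.66 ± 1.88 and 778 ± 96.9 CPM. Lipid droplet genes split 2, 4 and 3 of 9. Mgll, which cleaves monoglycerides, had 1150.3 ± 216 CPM in endothelial and 69.6 ± 12.1 CPM in cardiomyocyte nuclei, and Plin4, a droplet coat gene, had 8.56 ± 0.549 and 271 ± 75.5 CPM. The sex test called 0 of the 35 list genes tested in endothelial and 0 of 35 in cardiomyocyte nuclei by edgeR, with 5 in each at an unadjusted p under 0.05, 4 lower and 1 higher in female libraries. That is 14.3% of the list, beside 9.03% of all genes in endothelial and 6.99% in cardiomyocyte nuclei. In cardiomyocytes Angptl4, an inhibitor of the lipase, stood at 8.94 CPM in the library labelled nTg against 23.1 ± 8.88 CPM (n = 4) in those labelled Tg, below all 4.

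Across 13 classes of nuclei (7 types and the 6 endothelial subtypes), the genes with the most similar pattern were found by Pearson r of log2(mean CPM + 1) among 11718 genes. These r are descriptions, since the classes share libraries and depth. Cd36 was nearest to Mbnl2 (0.928), Atp5j (0.908) and Prickle3 (0.907), with Lpl at place 14 (0.874). Lpl was nearest to Max (0.917), Mb (0.915) and Tmem245 (0.906). Gpihbp1 was nearest to Ablim3 (0.982), Gm32688 (0.976) and Pcdh17 (0.965). Fabp3 was nearest to the sarcomere genes Myl2 (0.993), Actc1 (0.981) and Myl3 (0.978). Fabp4 followed Gm11730 (0.982), Slc26a10 (0.978) and C1qtnf9 (0.974), and Fabp5 followed Klk8 (0.940), Tmtc2 (0.913) and Gcc2 (0.891). Slc27a1 followed Bcat2 (0.951), Kcnip4 (0.950) and Gm40437 (0.949), and Acsl1 followed Got2 (0.925), Cpeb4 (0.919) and Slc16a1 (0.917). Meox2 was nearest to Ergic1 (0.962), Kdm1a (0.960) and Coro2b (0.956), and Tcf15 to Mprip (0.963), Tcim (0.946) and Kitl (0.942). The partners Meox2 and Tcf15 had an r of 0.853 with each other, which put Tcf15 at place 122 for Meox2. For Meox2, Fabp4 stood at place 36 (0.894) and Cd36 at place 3460 (0.467). For Tcf15, Fabp4 stood at place 43 (0.845) and Cd36 at place 1026 (0.579).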

How the data were processed

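The authors deposited whole-number UMI counts per gene and barcode, not normalized, made with Cell Ranger 7.0.0 per the file headers and on mm10 per the submitters' processing notes. The counting of introns and the cell calling are not given in the sources used here. A matrix was used where its column count equalled the length of its barcode file. The matrices of 3 other samples, identical to those of Tg female 2 and of both Tg male libraries, were not analysed here. The 10 genes and all lists were chosen with earlier results of these data known.

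Nuclei with 200 genes or more and under 5% mitochondrial UMIs were kept. Scrublet in scanpy 1.11.5 (expected doublets 6%) marked no nucleus in the library labelled Tg female 2, under the minimum of 0.5%, so the top 9.08% by score were removed there. Nuclei were clustered together (2000 variable genes without the 10 genes, 30 components, 15 neighbours, Leiden resolution 1). A cluster took a type's name with 3 or more of its markers raised (log2 over 1, margin 0.5, in 5% of nuclei), markers of no other type more frequent among 10 leading genes and, unless its own markers were among those 10, a median depth of at least the library median divided by 3. For subtypes the limits were 0.5 and 0.25. The subtype limits, the rule on mixed nuclei and the fallback for doublets were set after the clusters were seen. Names rebuilt in this way may differ from the study's.

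Counts were summed per library and class with 50 nuclei or more in each library. Sex was tested with edgeR 4.0.16 in R 4.3.3 (TMM, filterByExpr, quasi-likelihood, Benjamini-Hochberg over all genes, threshold 0.05), without a replicate block. The test was checked on data simulated from the mean levels, with a spread set only by its trend over all genes. Extra scatter of single genes or of a whole library was not simulated, so the shares called may not hold for the real data. Of 100 genes changed 2-fold the test called 43% in endothelial and 38% in cardiomyocyte sums. Of 100 changed 4-fold it called 86% and 77%. It also called 6 and 5 unchanged genes. DESeq2 1.42.0, RLE scaling, no filter, all 5 libraries with or without genotype, a replicate block, doublets kept, Leiden resolution 0.5, the 10 genes kept in the clustering and leaving out each library were alternatives. The labels do not state separate animals, so p-values measure only the spread between these libraries. UMIs per nucleus and the interaction tests against types other than cardiomyocytes were added after the data were seen. Shares of nuclei were taken after thinning each to 1000 UMIs. All 10 genes are named, whatever their values. Other pathway genes are named where they passed the sex test, lay apart in the library labelled nTg, or had the highest level of their role in endothelial or cardiomyocyte nuclei, and for each gene the 3 nearest by r (20 CPM or more in a class, pseudocount 1 CPM). Python 3.11.15, numpy 2.4.6, scipy 1.17.1 and matplotlib 3.10.9 were used.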

Additional observations from a re-analysis of the deposited data

Results flagged for a closer look

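In 8 cases the sex difference of a gene in endothelial nuclei differed from that in another cell type by a test of the difference itself (edgeR interaction, added after the data were seen). For Lpl the difference on the log2 scale, endothelial minus other, was -2.01 against pericytes, -1.72 against macrophages, -1.53 against lymphatic endothelium, -1.45 against endocardial nuclei and -1.37 against fibroblasts. For Cd36 it was -1.44 against macrophages and -1.08 against pericytes, and for Meox2 -1.01 against fibroblasts. Over 7 alternatives the adjusted p of edgeR reached at most 0.0184 for Lpl against pericytes and 0.0317 against fibroblasts, and rose above 0.05 in at least 1 alternative for the other 6. Sex and the level of Ccna2 cannot be fully told apart in these tests, since the library labelled Tg female 1 had 0.524 CPM of Ccna2 in cardiomyocyte nuclei. The library labelled nTg female 1 took no part in them. Its Lpl level in endothelial nuclei, 1232 CPM, lay with the male libraries, and its level in pericytes, 139 CPM, with the female ones.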

How the results depend on the processing

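The count of members with a higher mean level in endothelial than in cardiomyocyte nuclei (6 of 10) stayed at 5 to 6 in every alternative run. That of members with a higher mean in venous than in arterial endothelium (10) stayed at 7 to 10, with 7 when the 10 genes were kept in the clustering. Only 3 members were apart between these 2 subtypes, and Slc27a1 was higher in venous endothelium in 2 of 5 libraries. For neither count is the share of all genes given here. The sex results moved more. In endothelial nuclei the test called 0 members by edgeR, 2 by DESeq2, 2 without a filter on low counts and 0 to 2 with 1 library left out. In the other classes together it made 3 calls of a member, against 9 by DESeq2, 9 without a filter, 5 with all 5 libraries and a genotype term, 0 without that term, 1 with doublets kept and 0 (without Tg male 2) to 23 (without Tg female 1) with 1 library left out. The test of endothelial against cardiomyocyte nuclei called 0, 1 without a filter and 0 to 1 with 1 library left out. Genes called rose from 4 in cardiomyocytes to 101 by DESeq2, 96 without a filter and 36 to 213 with 1 library left out. In endothelium they went from 23 to 103, 368 and 93 to 214, and to 6 with 5 libraries and no genotype term. In the other classes they went from 374 to 1940 without a filter, 621 and 89 with 5 libraries and with or without a genotype term, and 565 to 3474 with 1 library left out. DESeq2 called from 3 to 233 genes a class in those other classes. For doublets kept there, and for the alternatives of the test against cardiomyocyte nuclei, the number of genes called is not given here. The cause of these shifts was not tested. With 2 libraries a sex and low counts of Slc27a1 in endothelium and of Meox2 in cardiomyocytes, small differences there are not detectable.

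The replicate numbers of the female and male libraries share only a number in the labels, and the correlation of same-numbered libraries ran from -0.027 to 0.141 over 14 classes. With the number as a replicate block, 5 rather than 3 differences of a member were called in the other classes, with Lpl in pericytes and in the Kit and Prnd cluster and Slc27a1 in macrophages gained and Lpl in the Bmp6 and Car4 cluster lost (adjusted p = 0.0829 by edgeR). Genes called became 35 in cardiomyocytes, 220 in endothelium and 1038 in the other classes.

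Some uncalled differences changed sign. With 1 library left out, the endothelial sex difference ran from -0.36 to 0.0388 for Fabp5 (above 0 without Tg male 1), from -1.19 to 0.32 for Slc27a1 (above 0 without Tg female 2, 0.29, or Tg male 1) and from -0.48 to 0.20 for Meox2 (above 0 without Tg female 2 or Tg male 1, 0.0445). In cardiomyocytes it ran from -0.68 to 0.00895 for Lpl (above 0 without Tg female 2) and from -0.603 to 0.24 for Meox2 (above 0 without Tg female 1 or Tg male 1, 0.0692). Slc27a1 in endothelium was 0.0213 with 5 libraries and no genotype term. With doublets kept, Meox2 in cardiomyocytes was 0.58, and macrophages had -0.19 for Lpl and -0.45 for Cd36.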
